A study of Mus musculus with 10 samples.

Results

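The 38 genes described here form a module of mitosis and the G2 phase of the cell cycle, namely the cyclins and kinases of mitotic entry, the anaphase-promoting complex and its substrates, spindle motors, cytokinesis proteins and centromere proteins. They were taken by name from the 46517 Ensembl genes of 9 single-cell count tables, and all 38 were found. Each table held 1 plate of 384 wells, read by Smart-Seq2, a full-length RNA-seq of single cells, and each well was sorted by Podoplanin and CD31 from ear skin of mice at 5 weeks of age. Mutant mice (n = 5, 7 plates) carried the R26-LSL-Pik3caH1047R transgene, which gives an activated PI3K catalytic subunit from the Rosa26 locus after Cre excision, together with the pan-endothelial, tamoxifen-inducible Cdh5-CreERT2, and had 4-OHT painted on the ears at 3 weeks. Of the 2 control mice, control 1 was an untreated C57BL/6J animal and control 2 a Cre-negative Pik3caH1047R;Cdh5-CreERT2 littermate given 4-OHT, so the controls differed in 4-OHT and in their labelled genotype, and a further control was not analysed here. Cdh5 drives Cre in lymphatic (LECs) and blood endothelial cells (BECs) alike, and the labels name no sort for recombined cells, so the wells of mutant mice may include cells without the transgene product.

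Passage through mitosis depends on cyclin A and cyclin B partners of Cdk1, on the Aurora and Polo-like kinases, and on a checkpoint that holds back the anaphase-promoting complex until every kinetochore is attached. The transcripts of these genes accumulate late in the cycle and are low in resting cells, so their level in a tissue follows how many of its cells are dividing. Mature dermal vessels are largely quiescent, and growth signals through PI3K are known to bring endothelial cells back into the cycle. In sums of reads over cells, fewer cells with a transcript and less of it per cell cannot be told apart, and both views are therefore given below.

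A cell was taken as a LEC where the summed read counts, scaled to the depth of the cell (CPM), of Prox1, Flt4 and Mmrn1 reached 300 and exceeded those of Flt1, Emcn and Podxl, and as a BEC in the reverse case. Of 3456 wells, 3248 passed the limits on genes, reads and mitochondrial share, and they gave 1641 LECs, 1490 BECs and 117 cells of neither kind. Both marker sums reached 300 CPM in 1201 of the kept cells (287 of control and 914 of mutant mice), which were assigned by the larger sum. The plates held 99738886–151102969 reads. The 8 LEC markers summed to 7729–11026 CPM in LECs and 169–652 in BECs, and the 7 BEC markers to 1576–2137 and 7520–10930. The genes of the rule are among both sets of markers, so part of this separation was set in advance. Markers of some other skin cells were lower in mutants. The 6 fibroblast markers summed to 216–386 CPM in control LECs and 24.2–126 in mutant LECs, and to 479–644 and 25.9–67.8 in BECs. The 6 mural cell markers summed to 88.6–269 and 38.8–73.2 in LECs and to 291–639 and 38.7–190 in BECs. The 7 keratinocyte markers overlapped between genotypes, at 217–350 and 104–341 in LECs and 213–432 and 16.5–672 in BECs. No gene of these lists was at 0 throughout, and their part in the results was not tested. Plate numbers fell into a series that held mutants 1–4 and another that held mutant 5 and both controls, so for mutants 1–4 genotype and plate series cannot be told apart.

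All 38 genes were higher in the LECs of every mutant mouse than in those of either control, and 31 passed the test. Reads were summed per mouse over 175–367 LECs (55616045–194353210 reads) and compared by edgeR's quasi-likelihood test with Benjamini-Hochberg adjustment over 19758 genes, with calls made at adjusted p-values under 0.05. The background was 1.96% of genes called higher and 0.805% called lower, and no member was called lower. Groups that did not overlap in this way were found for 13.8% of all genes. The median log2 fold change of the members was 2.99, beside -0.01 over all genes tested, and all 38 lay above 0, as did 49.6% of all genes. All 38 members passed the filter on low counts, and all had an unadjusted p under 0.05, as did 3963 of the 19758 genes. DESeq2 called 37 of them, beside 8.68% of all genes called higher by it. With the plate series as a term in the fit, 19 remained called and all 38 stayed above 0.

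**Figure D1:**
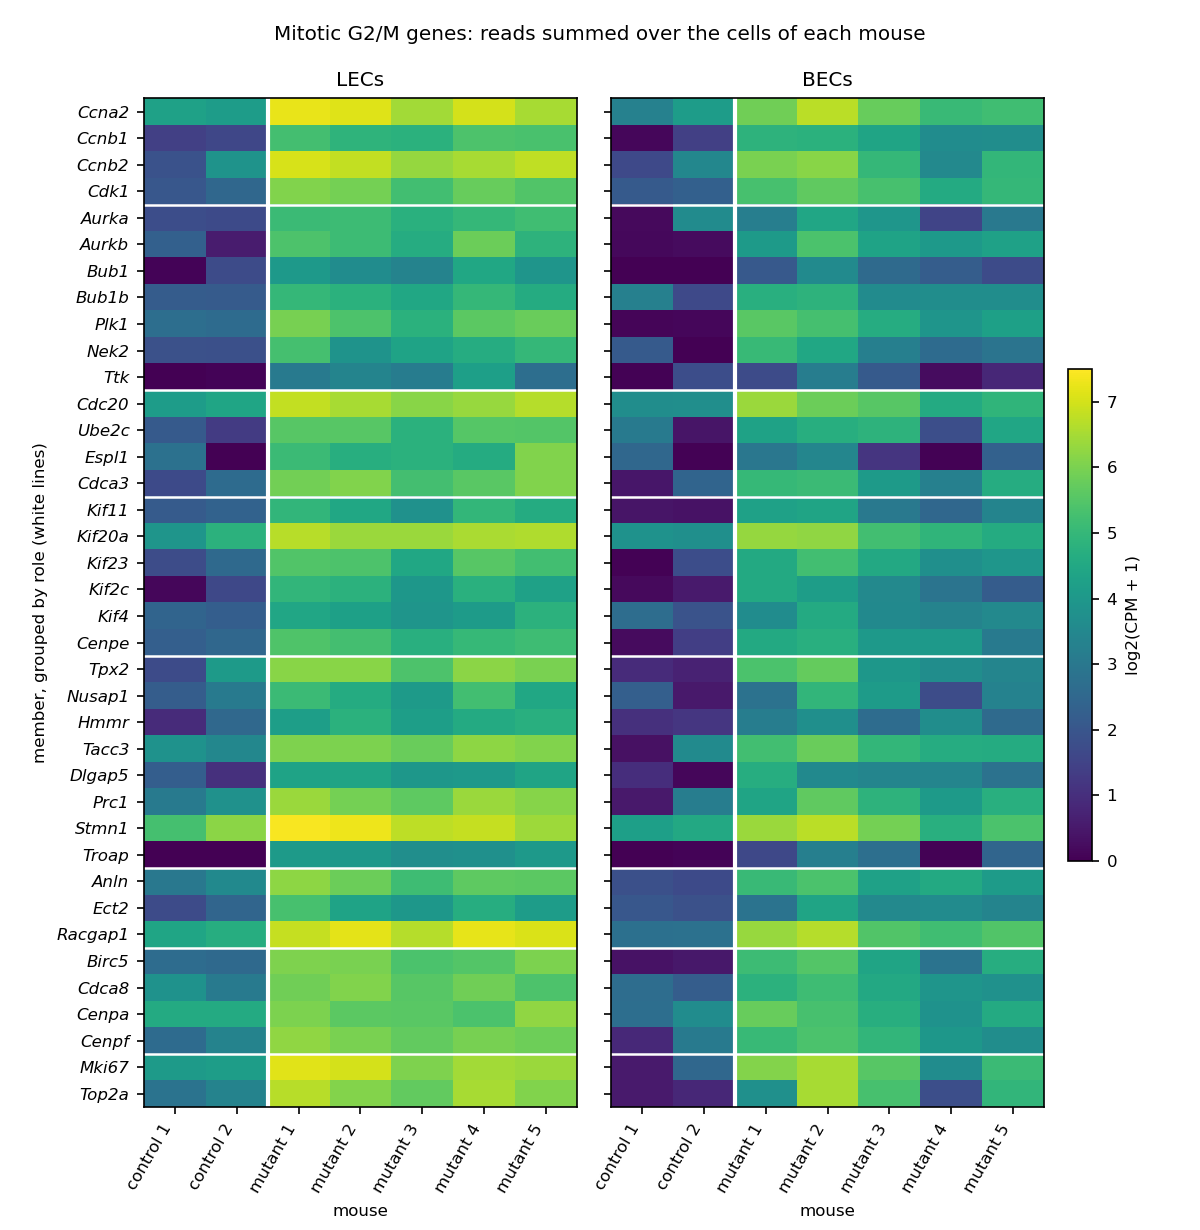
Level of each of the 38 genes (rows, grouped by role) in the summed LECs (left) and BECs (right) of the 2 control and 5 mutant mice (columns), as log2(CPM + 1). Every row is brighter in the mutant LEC columns than in both control columns, and 6 of the 38 overlap between genotypes in BECs.

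The cyclins and their kinase were called together, 4 of 4. Ccnb1 (chromosome 13, 100778650–100786570, minus strand, GRCm38), whose protein cyclin B1 activates Cdk1 at mitotic entry, stood at 1.70 and 2.01 CPM in the LECs of controls 1 and 2 and at 37.02, 28.4, 26.4, 41.7 and 40.1 CPM in those of mutants 1–5. The lowest mutant thus lay far above the higher control, at 4.23 in log2 fold change (SE 0.34, adjusted p = 0.00285). Cdk1, the kinase that drives mitosis, was at 3.09 and 4.70 CPM in controls and 66.1, 60.1, 36.8, 53.2 and 43.2 CPM in mutants (log2 fold change 3.73, SE 0.36). Ccna2 encodes cyclin A2, which acts from S phase into early mitosis, and started from a higher control level of 18.7 and 16.7 CPM to reach 152, 138, 87.6, 128 and 89.8 CPM. Its log2 fold change was 2.75 (SE 0.29). Ccnb2 differed between the control mice themselves, at 2.69 and 13.3 CPM, against 79.2–131 CPM in mutants.

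Among the 7 mitotic kinases 6 were called. Aurka, the kinase of centrosome maturation, was at 2.38 and 2.23 CPM in control LECs and at 33.7, 34.0, 26.3, 31.1 and 35.7 CPM in mutant LECs, the narrowest relative spread of the kinases (log2 fold change 3.80, SE 0.28, adjusted p = 0.0019). Plk1 (chromosome 7, 122159439–122169873, plus strand), the Polo-like kinase of mitotic entry and spindle assembly, was at 5.49 and 5.19 against 61.4, 41.5, 26.9, 48.2 and 53.8 CPM (log2 fold change 3.12, SE 0.37). Aurkb, the kinase of the chromosomal passenger complex, Bub1b, a checkpoint protein, and Nek2, a kinase of centrosome separation, had log2 fold changes of 4.07, 2.93 and 3.28. Ttk, the upstream checkpoint kinase, had only 3 reads in the control LECs and 4012 in the mutant LECs, a ratio of 317 with a counting interval of 109–1540. All 3 reads came from control 2, and such intervals leave out amplification and the spread between mice. Bub1, a kinase at the kinetochore, was not called (log2 fold change 3.61, SE 1.14, adjusted p = 0.129): its control values of 0.0542 and 2.29 CPM lay wide apart, below 9.28–21.1 CPM in mutants.

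The genes of anaphase onset followed the same direction. Cdc20, the activator of the anaphase-promoting complex, was at 16.7 and 20.1 CPM in control LECs and at 110, 90.1, 70.5, 80.6 and 99.8 CPM in mutant LECs, a log2 fold change of 2.29 (SE 0.24). Ube2c, the ubiquitin-conjugating enzyme of that complex, stood at 3.32 and 1.47 CPM against 45.5, 45.7, 26.8, 45.4 and 44.4 CPM (4.12, SE 0.45). Cdca3, known as a trigger of mitotic entry, was called with a log2 fold change of 3.91. Espl1, the separase that cuts cohesin, was not called (3.56, SE 1.46, adjusted p = 0.223). Control 1 held 5.94 CPM of it and control 2 none, and mutant 5 stood at 66.3 CPM above 23.3–33.6 in the other 4 mutants.

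Among motors and spindle proteins, 5 of 6 kinesins and 5 of 8 spindle and microtubule genes were called. Kif11, which slides spindle microtubules apart, was at 3.47 and 4.11 CPM in control LECs and at 29.4, 21.0, 12.8, 29.9 and 23.4 CPM in mutant LECs (log2 fold change 2.62, SE 0.42). Kif20a, Kif23 and Kif4, motors of the central spindle, and Cenpe, a kinetochore motor, were called at 2.15, 3.38, 2.25 and 3.02. Kif2c, a microtubule depolymerase, fell short at an adjusted p of 0.0629 with a log2 fold change of 4.40. Of the spindle genes, Tacc3 was the most even, at 13.3 and 10.1 CPM in controls and 64.8, 63.4, 54.5, 73.2 and 66.2 CPM in mutants (2.46, SE 0.23). Troap, a spindle-associated gene, had a single control read against 7002 mutant reads, a ratio of 1662 with a counting interval of 298–65663 that has the same limit. Nusap1, Dlgap5 and Prc1 were also called, at 2.25, 2.92 and 2.74, whereas Tpx2 (2.81, adjusted p = 0.0688), Hmmr (2.96, adjusted p = 0.054) and Stmn1 (1.197, adjusted p = 0.111) were not. Stmn1, a tubulin-binding protein that is also found outside mitosis, was the member with the smallest change and stood at 38.02 and 72.4 CPM in controls against 172, 157, 107, 115 and 82.7 CPM in mutants.

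All 3 cytokinesis genes were called. Racgap1, a part of centralspindlin that directs the cleavage furrow, was at 20.4 and 24.3 CPM in control LECs and at 114, 146, 101.1, 148 and 134 CPM in mutant LECs (log2 fold change 2.52, SE 0.22). Anln, the scaffold of the contractile ring, and Ect2, the exchange factor for RhoA, had log2 fold changes of 2.55 and 2.75. At the centromere, Birc5, the passenger protein survivin, stood at 5.33 and 4.96 CPM against 64.9, 63.1, 40.5, 44.1 and 64.3 CPM (3.43, SE 0.31), and Cdca8 and Cenpf were called at 2.38 and 3.10. Cenpa, the histone variant that marks centromeres, missed the threshold (1.25, SE 0.28, adjusted p = 0.058) although 40.8–75.5 CPM in mutants lay above 23.2 and 23.05 in controls. The chromatin genes were both called. Mki67 (chromosome 7, 135689784–135716361, minus strand), the Ki-67 coat protein of mitotic chromosomes, was at 15.9 and 17.2 CPM in controls and 143, 128, 64.7, 86.3 and 82.5 CPM in mutants (2.61, SE 0.36), and Top2a, which untangles DNA, was at 6.18 and 9.27 CPM against 104, 68.3, 50.9, 89.8 and 66.5 (3.29, SE 0.37).

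Reads were counted without stated use of strand, so where exons of 2 genes overlap they cannot be told apart. Of exonic bases, 29.3% were shared with Cdc23 in Kif20a, 22.8% with Tnnc2 in Ube2c, 15.1% with Pdzd11 in Kif4, 12.5% with Exosc9 in Ccna2 and 11.1% with Rccd1 in Prc1. Annotated pseudogenes bear the names of Ccnb1, Ccnb2 and Kif4, and Stmn1 has a related sequence.

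G2/M promoters are known for CCAAT boxes, the letters bound by NF-Y, and for the cell cycle genes homology region (CHR), a short element near the start site that is bound by the MuvB complex. Because the members moved together, their RefSeq promoters (GRCm38.p6, 300 bases around each start) were searched on both strands for the CHR letters TTTGAA or TTCGAA and for CCAAT, counting overlapping matches each. Promoters were found for 32 of the 38 members. CHR letters stood in 25 of the 32 (78.1%) and in 21.7% of the promoters of 27025 genes, CCAAT in 27 (84.4%) against 41.1%, at least 2 CCAAT in 19 (59.4%) against 13.3%, and both kinds in 23 (71.9%) against 8.61%. Nusap1, Tacc3 and Birc5 held neither. Such matches describe letters and not occupied sites. For the 6 members that held both kinds within the 100 bases before their first listed start, those bases are shown in the direction of the gene, with capitals for the CHR letters (TTTGAA, or TTCAAA when read from the other strand) and for CCAAT (or ATTGG).
Cdc20 (chr4:118437344-118437443, minus strand): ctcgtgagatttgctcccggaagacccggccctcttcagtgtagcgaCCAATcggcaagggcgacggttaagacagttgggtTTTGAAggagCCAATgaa
Cdk1 (chr10:69352913-69353012, minus strand): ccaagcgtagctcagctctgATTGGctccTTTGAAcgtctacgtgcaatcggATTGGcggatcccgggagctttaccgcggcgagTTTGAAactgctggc
Espl1 (chr15:102296193-102296292, plus strand): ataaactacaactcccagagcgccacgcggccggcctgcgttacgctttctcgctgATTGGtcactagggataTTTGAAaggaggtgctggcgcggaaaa
Kif11 (chr19:37376282-37376381, plus strand): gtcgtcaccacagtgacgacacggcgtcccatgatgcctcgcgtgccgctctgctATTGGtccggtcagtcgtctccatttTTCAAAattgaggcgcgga
Top2a (chr11:99024190-99024289, minus strand): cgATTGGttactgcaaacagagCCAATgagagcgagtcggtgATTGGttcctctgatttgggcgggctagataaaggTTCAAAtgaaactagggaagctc
Ube2c (chr2:164769829-164769928, plus strand): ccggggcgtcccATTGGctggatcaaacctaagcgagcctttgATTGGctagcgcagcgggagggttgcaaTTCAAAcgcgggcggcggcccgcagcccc

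In BECs the direction was the same and fewer genes passed. Over sums of 157–330 cells per mouse (38402388–99630824 reads) and 19315 genes tested, 10 of the 38 were called higher and none lower, against a background of 1.51% higher and 0.611% lower. All 38 lay above 0 (50.4% of all genes did), the median log2 fold change was 2.98 beside 0.01 over all genes, and in 32 every mutant stood above both controls, as in 13.6% of all genes. DESeq2 called 32 members, beside 8.38% of all genes called higher. The 10 were Cdk1, Aurkb, Bub1, Plk1, Kif11, Kif2c, Tpx2, Anln, Racgap1 and Birc5. Without control 1 only 4 members were called, 3 of them from these 10, beside 341 of all genes. With the plate series as a term it was 2, beside 54.

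Several of these genes were close to absent from control BECs. Plk1 was at 0.0638 and 0.094 CPM in controls, from 7 reads, and at 46.7, 38.4, 23.9, 14.2 and 18.3 CPM in mutants (log2 fold change 8.46, SE 0.82, adjusted p = 0.00428). Aurkb was at 0.128 and 0.164 CPM against 16.1, 40.9, 19.3, 15.2 and 18.8 (7.22, SE 0.70). Bub1 had 0 reads in both controls and 2.29–11.1 CPM in mutants, which was at least 130-fold higher when 3 reads over the control group are taken as the floor.

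Cdk1 and Racgap1 had measurable levels in control BECs. Cdk1 went from 3.34 and 3.95 CPM to 39.1, 49.9, 38.6, 23.2 and 30.6 CPM (log2 fold change 3.31, SE 0.39), and Racgap1 from 5.85 and 5.99 to 79.9, 100.3, 43.0, 35.5 and 43.2 CPM (3.35, SE 0.51). Mki67 was not called in BECs, where controls held 0.468 and 4.63 CPM and mutants 68.3, 90.9, 45.8, 11.6 and 33.6 (4.30, SE 1.12, adjusted p = 0.0892). Aurka overlapped between genotypes, since control 2 at 11.4 CPM exceeded mutants 1, 4 and 5. Mutant 4 held little of some members, such as Top2a at 2.46 CPM where the other mutants held 12.5–90.3, and Espl1 at 0.031.

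**Figure D2:**
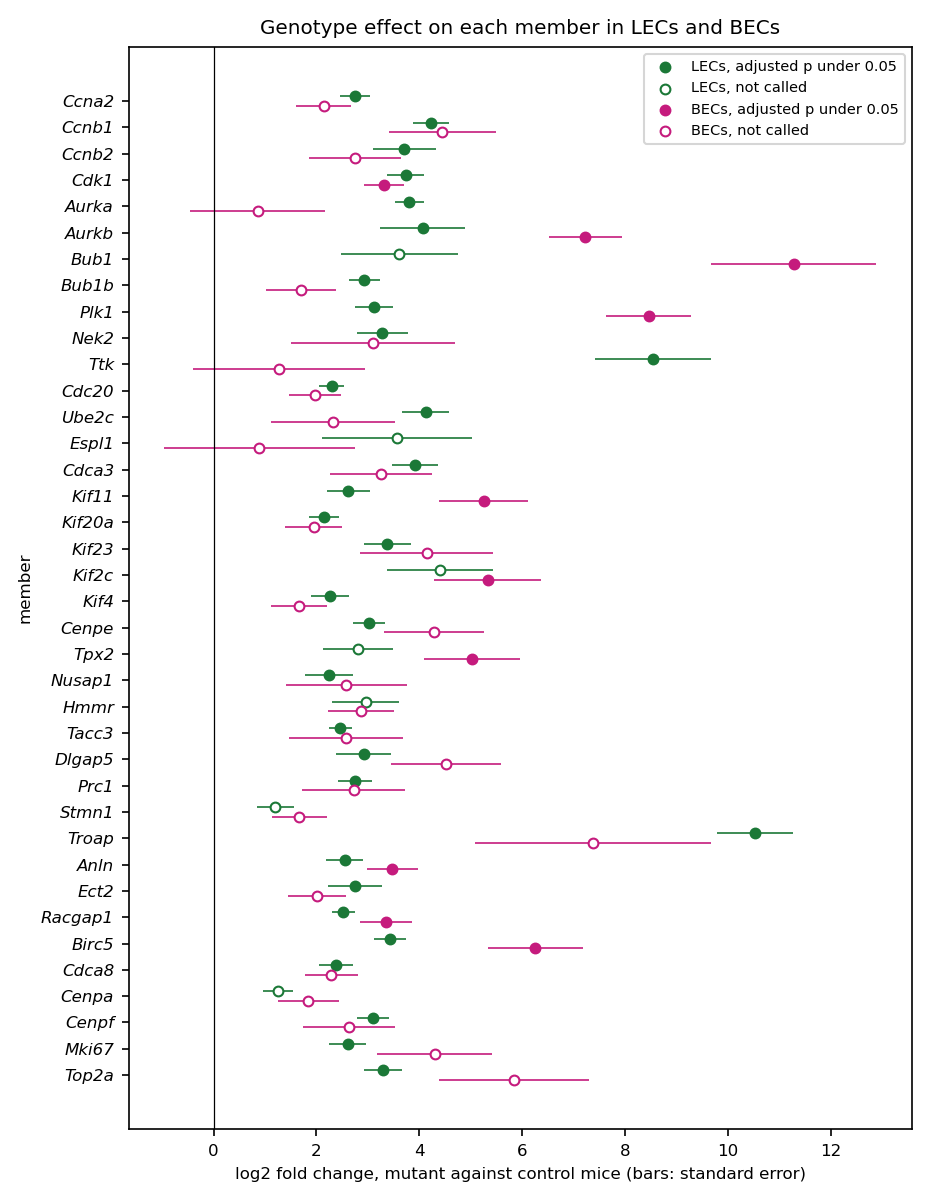
Log2 fold change of each member (y axis) between mutant and control mice in LECs (green) and BECs (pink), with bars for the standard error and filled points for an adjusted p under 0.05. All points lie to the right of 0, with 31 filled in LECs and 10 in BECs.

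The genotype effects in LECs and BECs were compared by an interaction term with the mouse as a block, over 21933 genes, of which 0.0319% were called higher in LECs and 0.16% lower. Only Plk1 among the members was called, with an effect in LECs minus that in BECs of -5.29 on the log2 scale (SE 0.69, adjusted p = 0.0437). Its control levels were 5.19–5.49 CPM in LECs and 0.0638–0.094 in BECs, and its mutant levels, 26.9–61.4 and 14.2–46.7 CPM, overlapped. Leaving out any single mouse ended this call, and DESeq2 called 6 members, beside 1258 of the 21933 genes. The direction was otherwise mixed: 17 of 38 members lay above 0, as did 48.5% of all genes, and the median difference was -0.44. At an unadjusted p under 0.05, 8 members differed, as did 2528 of the 21933 genes, among them Bub1 (-7.60, adjusted p = 0.185), Birc5 (-2.65, adjusted p = 0.166) and Ttk (7.72, adjusted p = 0.23).

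Per cell, the module value was defined as the summed CPM of the 38 genes. Its mean over LECs was 222 and 361 CPM in controls 1 and 2 and 1923, 1837, 1129, 1381 and 1623 CPM in mutants 1–5, which is 1578 ± 327 (SD, n = 5) against 292 in controls. Over BECs it was 112 and 178 CPM in controls and 612, 1119, 665, 311 and 590 CPM in mutants, 659 ± 291 (SD, n = 5). The mutant and control mice did not overlap in either cell type, and LECs exceeded BECs in each of the 7 mice. Within the plate series of mutant 5 and the controls, mutant 5 lay above both controls in LECs and in BECs. The paired plates of mutant 3 gave LEC values of 1396 and 851 CPM and those of mutant 5 gave 1520 and 1734.

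Most cells contributed little to these means. The median cell had 70.3 and 90.4 CPM in control LECs and 317, 227, 181, 175 and 300 CPM in mutant LECs, so the mean was carried by a minority. After every cell was thinned to 50000 reads, a cell was called member-rich when it held reads of at least 10 of the 38 genes. This was true of 1 of 183 LECs in control 1 (0.546%, 95% Wilson interval 0.0965–3.03%) and 3 of 175 in control 2 (1.71%, 0.585–4.92%). In mutants 1–5 it was true of 48 of 184, 26 of 187, 35 of 363, 21 of 182 and 65 of 367 LECs, from 9.64% (7.01–13.1%) in mutant 3 to 26.1% (20.3–32.9%) in mutant 1. These intervals cover counting error only, and reads without molecular barcodes are not independent molecules. All 5 mutants lay above both controls, with intervals that did not overlap those of the controls.

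BECs had lower shares. Member-rich cells were 1 of 159 and 0 of 157 in controls (upper Wilson bound 2.39% for control 2) and 25 of 183, 17 of 184, 11 of 330, 3 of 174 and 13 of 303 in mutants 1–5, that is 13.7%, 9.24%, 3.33%, 1.72% and 4.29%. The BEC intervals of mutants 3, 4 and 5, at 1.87–5.87%, 0.588–4.95% and 2.52–7.20%, overlapped that of control 1 (0.111–3.48%). Those of mutants 1 and 2 overlapped neither control. The LEC share was the higher in every mutant, and in mutant 2 the intervals overlapped at 9.67–19.6% in LECs and 5.85–14.3% in BECs. The limit of 10 cuts a continuous score, and 274 mutant LECs lay within 6–13 members. In mutants 1 and 5 many member-rich LECs had low totals: 31 of 48 and 45 of 65 reached a module value of 1000 CPM, against 26 of 26, 30 of 35 and 21 of 21 in mutants 2, 3 and 4. Among BECs of mutant 1 it was 8 of 25. When 1000 CPM was required as well, the LEC shares of mutants 1–5 were 16.8%, 13.9%, 8.26%, 11.5% and 12.3%, and those of controls stayed at 0.546% and 1.71%. Without thinning, the share of LECs with reads of at least 10 members was 27.5–86.4% in mutants, highest in mutants 1 and 5, and 6.29–9.84% in controls. Whether reads passed between wells of a plate was not tested.

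**Figure D3:**
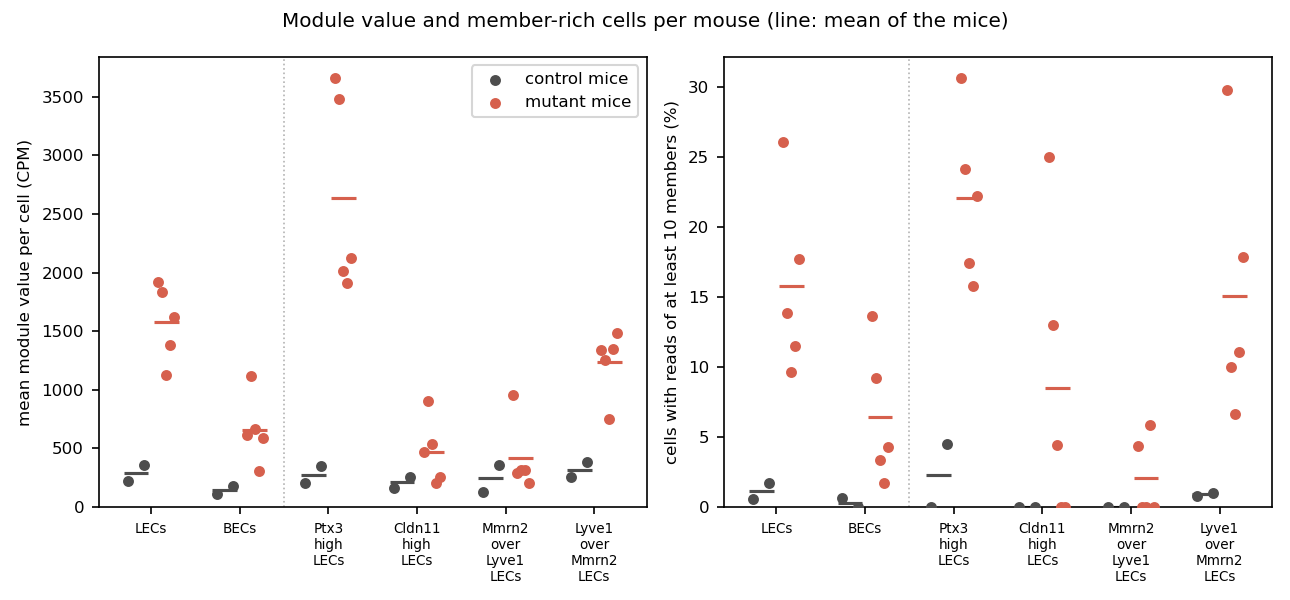
Mean module value per cell in CPM (left) and percent of cells with reads of at least 10 members (right), each point a mouse and each line the mean, for LECs, BECs and the 4 LEC subtypes in control (grey) and mutant (red) mice. Mutant LECs lie at 1129–1923 CPM above controls at 222 and 361, and Ptx3-high LECs of mutants are the highest at 1911–3661 CPM.

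LECs were further split by Ptx3 of at least 100 CPM (Ptx3-high, which marks a capillary subtype), otherwise Cldn11 of at least 300 CPM (Cldn11-high, a valve gene), otherwise by whether Mmrn2 exceeded Lyve1, the latter being a capillary marker. The mutant groups held 488, 149, 100 and 546 cells in this order, the last being Lyve1-over-Mmrn2. The Lyve1, Reln and Ccl21a sum was 3688–5013 CPM in Lyve1-over-Mmrn2 LECs, 757–1855 in Mmrn2-over-Lyve1 LECs and 1499–2516 in Cldn11-high LECs. Lyve1 was itself used in the split, so part of this difference was set in advance. Mean module values in mutants 1–5 were 3661, 3482, 2010, 1911 and 2127 CPM in Ptx3-high LECs and 1341, 1256, 750.0, 1351 and 1484 CPM in Lyve1-over-Mmrn2 LECs, so Ptx3-high cells were higher in all 5 mice. Cldn11-high LECs had 466, 902, 537, 205 and 257 CPM, and Mmrn2-over-Lyve1 LECs 956, 290, 314, 320 and 206 CPM. In control mice the 4 groups lay at 133–387 CPM with no such order. Ptx3-high LECs of controls 1 and 2, only 12 and 44 cells, had 207 and 349 CPM. Lyve1-over-Mmrn2 LECs had 254 and 387 CPM there.

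Gene by gene, none of the 38 members passed the test between Ptx3-high and Lyve1-over-Mmrn2 LECs of mutant mice. This edgeR quasi-likelihood fit had the mouse as a block and 15505 genes, of which 0.129% were called higher and 0.8% lower. All 38 log2 fold changes were positive, as were 51.5% of all genes, with a median of 0.93. Stmn1 alone had an unadjusted p under 0.05 (log2 fold change 0.68, SE 0.24, edgeR adjusted p = 0.453), and DESeq2 called no member either. Ccnb1 was at 80.8, 50.5, 44.1, 56.8 and 44.3 CPM in Ptx3-high against 14.6, 17.6, 20.5, 29.5 and 37.1 CPM in Lyve1-over-Mmrn2 LECs, with every mouse in the same direction. The direction depended on the Ptx3 limit. At Ptx3 of at least 300 CPM 21 of 38 members were positive with a median of 0.04, and the module value of Ptx3-high LECs was 3591, 3274, 1416, 1386 and 1628 CPM against 1776, 1691, 1189, 1783 and 1929 CPM in Lyve1-over-Mmrn2 LECs, higher in mutants 1–3 and lower in mutants 4 and 5.

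Cldn11-high and Mmrn2-over-Lyve1 LECs held less of most members than Lyve1-over-Mmrn2 LECs. The Mmrn2-over-Lyve1 group also held more of the 7 BEC markers, at 2207–3405 CPM over mutant mice against 1467–1864 in Lyve1-over-Mmrn2 LECs. Its 6 fibroblast markers summed to 5.22–2251 CPM, against 26.8–52.5. The part of other cells in its low member levels was not tested. In Mmrn2-over-Lyve1 LECs, 2 members were called lower, beside 0.4% of genes called higher and 0.755% lower. These were Racgap1, at 59.4, 14.4, 23.3, 23.2 and 8.53 CPM in mutants 1–5 against 82.3, 115, 95.2, 91.8 and 126 CPM (log2 fold change -2.10, SE 0.46, adjusted p = 0.0382), and Hmmr, a hyaluronan receptor that also binds the spindle, at 0.40–1.90 against 10.3–23.6 CPM (-3.77, SE 0.73, adjusted p = 0.0217). Only Espl1, Stmn1 and Ttk lay above 0, where 41.7% of all genes did, and the median was -2.35. In Cldn11-high LECs Ect2 was the only member called, at 0.51, 0.00, 0.90, 0.22 and 0.61 CPM against 11.6–23.6 CPM (-5.27, SE 1.11, adjusted p = 0.0433), beside 0.264% of genes called higher and 0.277% lower. Espl1, Kif4 and Stmn1 lay above 0 there, where 43.5% of all genes did, and the median was -2.22. At an unadjusted p under 0.05, 23 members were lower in Mmrn2-over-Lyve1 and 19 in Cldn11-high LECs, beside 1389 and 1023 of all 15505 genes, and DESeq2 called 21 and 11, beside 1120 and 581 genes in either direction. Without any 1 of mutants 2–5 no member was called in Mmrn2-over-Lyve1 LECs, without mutant 1 there were 9, and Ect2 was called under 4 of 12 other settings in Cldn11-high LECs.

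The 195 member-rich mutant LECs were spread over the subtypes as 104 Ptx3-high, 76 Lyve1-over-Mmrn2, 13 Cldn11-high and 2 Mmrn2-over-Lyve1 cells. Ptx3-high cells made up 39.6%, 57.7%, 62.9%, 57.1% and 55.4% of member-rich LECs in mutants 1–5, more than the 33.7%, 33.2%, 34.7%, 41.8% and 44.1% they made up of all LECs. At the limit of 300 CPM their share among member-rich LECs averaged 35.01% against 28.3% of all LECs and was higher in 4 mice and lower in mutant 4. Cldn11-high cells averaged 6.78% of member-rich and 12.03% of all LECs, and Mmrn2-over-Lyve1 cells 1.37% and 8.81%, lower in all 5 mice at either limit. The cells behind the last group number only 2, and no member-rich cell of it was seen in mutants 2, 3 and 5.

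Within member-rich cells the genes were found together. To keep a gene from choosing its own cells, each was scored in mutant LECs with reads of at least 10 of the other 37 members. Racgap1 was then read in 91.5% of such cells, in 40.9% of the other mutant LECs and in 19.8% of control LECs, and Stmn1 in 87.8%, 34.3% and 26.0%. These genes were thus common outside the rich cells. Birc5 was far more restricted, at 76.2%, 8.65% and 3.35%, as were Mki67 at 75.8%, 12.2% and 5.31%, Cdk1 at 61.8%, 8.84% and 0.838%, and Ccnb1 at 53.2%, 3.37% and 2.23%. Ttk and Troap were read least often even in rich cells, at 24.1% and 32.6%. Of the CPM of Plk1 summed over mutant LECs, 97.2% came from cells rich in the other members. For the other members this share of summed CPM was at least 58.7% (Stmn1), with the exception of Espl1.

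Espl1 stood apart. It was read in 32.8% of cells rich in the other members and in 13.99% of the other mutant LECs, with mean levels of 48.7 and 29.4 CPM. Only 22.3% of its summed CPM came from the rich cells. Over the 195 member-rich LECs, Spearman correlations of CPM were computed for the 703 pairs of members. Their median was 0.52, 391 pairs exceeded 0.5 and none was negative. The pairs share cells, depth and the choice of cells, so these values describe and do not test. Ccnb2 with Kif20a was the closest pair at 0.81, and Espl1 with Stmn1 the loosest at 0.04. Per kilobase of transcript, Ccnb2 was the most abundant member in rich cells at 307 CPM per kb, then Stmn1 at 238 and Cdc20 at 220, and Ttk the least at 7.13.

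**Figure D4:**
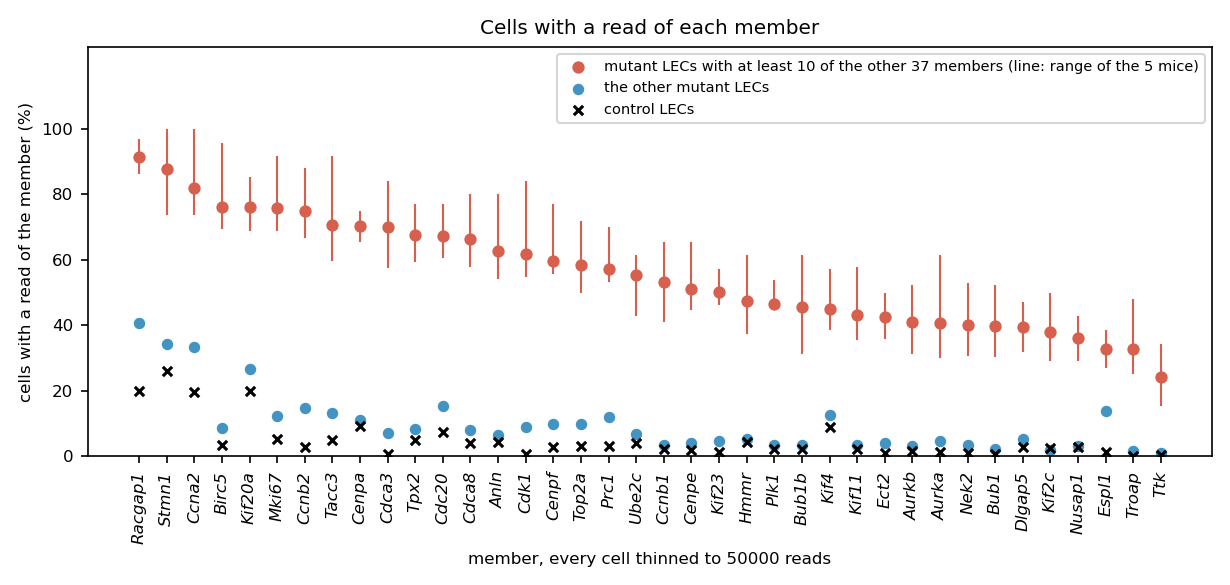
Percent of LECs, thinned to 50000 reads, with a read of each member (x axis): mutant LECs with at least 10 of the other 37 members (red, line for the range of 5 mice), the other mutant LECs (blue) and control LECs (crosses). Red points run from 91.5% for Racgap1 down to 24.1% for Ttk, and the blue points of Racgap1, Stmn1 and Ccna2 reach 40.9%, 34.3% and 33.3%.

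The rest of the cycle was read from 40 genes of S phase. Member-rich mutant LECs held reads of 16.0 ± 3.5 of these 40 (SD, n = 5 mice) and the other mutant LECs of 5.70 ± 0.50, and the order held in each mouse, as it did in BECs at 15.6 ± 3.9 against 5.07 ± 0.83. Foxm1, an activator of G2/M genes, averaged 107 CPM in member-rich and 4.88 in other mutant LECs, and Mybl2, another, 30.7 and 0.97 CPM. Member-rich LECs also had more reads before thinning (median 431058 against 332796, mean of 5 mice). Their 8 LEC markers summed to 6089–8557 CPM against 8079–10451, and LEC and BEC scores within 3-fold of each other were found in 14.8% ± 5.9 of them and 11.0% ± 3.0 of the others. That share was higher in member-rich LECs of mutants 1, 3 and 4. It was lower in mutant 2 (11.5% against 11.8%) and mutant 5 (9.23% against 11.3%). In mutant BECs it was 12.8% ± 11.5 of member-rich cells (5.88–33.3% over the mice) and 4.81% ± 0.91 of the others. No doublet caller was run, and the part of wells with more than 1 cell was not tested.

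**Figure D5:**
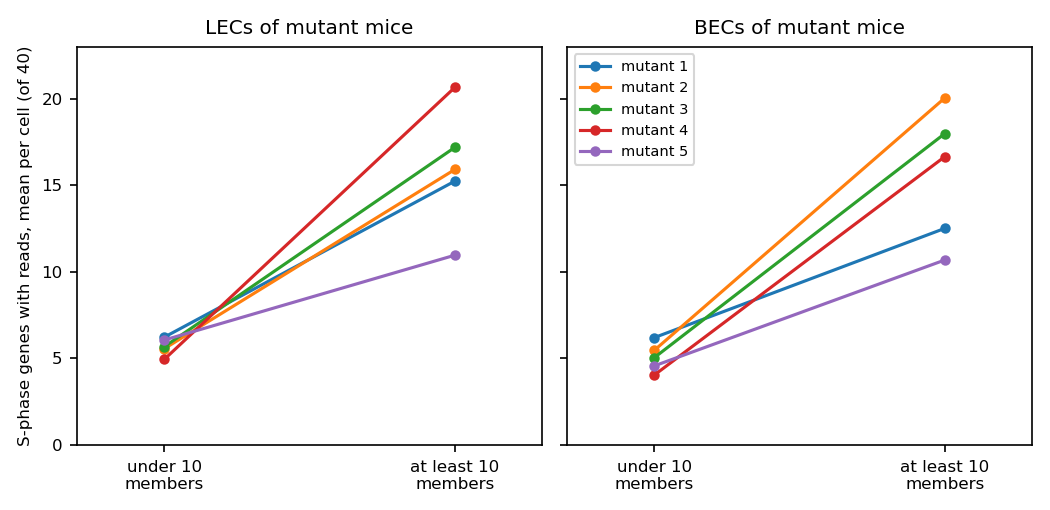
Mean number of 40 S-phase genes with reads per cell, thinned to 50000 reads, in cells of the 5 mutant mice with fewer than 10 or at least 10 of the 38 members, for LECs (left) and BECs (right), 1 line per mouse. Every line rises, from 4.96–6.24 to 11.0–20.7 genes in LECs.

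Genes around the module were followed in 7 further lists. Over all genes tested in LECs, 1.96% were called higher and 0.805% lower, and the median log2 fold change was -0.01. Of 26 other spindle and cytokinesis genes, 12 were called higher in mutant LECs and none lower, with a median log2 fold change of 2.73. Fam83d, which positions the spindle, was at 0.16 and 0.40 CPM in controls against 17.9–49.8, and Pimreg at 3.396 and 1.24 against 29.1–56.7. Gtse1 and Sapcd2 were also named by the rule, with log2 fold changes of 5.45 and 6.82. Of 34 other kinetochore and centromere genes, 7 were called higher (median 1.34), among them Ndc80, the microtubule-binding subunit of the outer kinetochore, at 1.59 and 1.84 CPM against 19.0, 22.3, 13.7, 22.7 and 15.2. Sgo2a and Cenpn had log2 fold changes of 4.08 and 7.84. S-phase genes were called in 10 of 40 cases (median 1.05), with Rrm2, a ribonucleotide reductase subunit, at 4.32 and 1.31 CPM against 36.6–70.0, and Mcm5, Cdc45 and Tk1 at log2 fold changes of 2.33, 2.31 and 2.85.

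Of 16 genes of chromosome condensation and cohesion, 3 were called higher (Ncapd2, Ncapg and Cdca5) and 1 lower. The latter was Pttg1, the securin that restrains Espl1, at 94.95 and 96.0 CPM in control LECs and at 45.4, 34.6, 43.5, 39.8 and 53.2 CPM in mutant LECs (log2 fold change -1.14, SE 0.19, adjusted p = 0.0241). Lower values were called in BECs too, at 109.9 and 98.6 against 46.1, 52.9, 48.6, 50.1 and 65.6 CPM (-0.98, SE 0.18, adjusted p = 0.037). Mutant 5, of the same plate series as the controls, lay below both in each cell type. Pttg1 averaged 34.4 CPM in member-rich and 44.7 in other mutant LECs, with overlapping ranges over the mutant mice of 27.6–52.5 and 35.5–56.9. Before thinning, reads of it were found in 68.7% of member-rich and 55.3% of other mutant LECs.

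Few genes of the remaining lists passed the edgeR test. Of 23 further mitotic kinases, phosphatases and genes of the anaphase-promoting complex, only Anapc7 was called in LECs (log2 fold change 0.91, SE 0.16, adjusted p = 0.0294), and it was called in BECs as well (1.397, SE 0.16). Of these 23, 13 had an unadjusted p under 0.05 in LECs, 12 of them higher. DESeq2 called 8 of them higher and 1 lower there, beside 8.68% of all genes called higher. None of 17 regulators of mitotic transcription was called by edgeR, with 6 at an unadjusted p under 0.05 (3963 of 19758 genes) and 6 called higher by DESeq2. Foxm1 came to 0.0361 and 3.26 CPM in control LECs and 34.8, 19.8, 22.2, 25.8 and 27.0 CPM in mutant LECs (3.97, SE 1.19, adjusted p = 0.114). Of 10 inhibitors and quiescence genes 1 was called, Btg2, an anti-proliferative gene of resting cells, which fell by 0.88 on the log2 scale (SE 0.19, adjusted p = 0.0494) from 380 and 296 CPM to 139–215. Cdkn1a, the p21 inhibitor of cyclin-dependent kinases, had a log2 fold change of 1.61 and an adjusted p of 0.0524, at 84.3 and 80.0 CPM in controls against 196, 187, 202, 244 and 425.

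In BECs the same lists gave 3 of 34 kinetochore genes (Spc24 and Cenpm among them), 2 of 26 spindle genes (Aspm and Shcbp1), 3 of 23 kinases and related genes (Melk, Pbk and Anapc7) and 2 of 40 S-phase genes (Rrm2 and Chaf1b) called higher. Over all genes 1.51% were called higher. By edgeR no regulator or inhibitor was called in BECs, where 2 of 17 and 1 of 10 had an unadjusted p under 0.05, beside 3793 of all 19315 genes. DESeq2 called 2 regulators higher, 1 lower and no inhibitor, beside 1489 of all genes higher and 749 lower. These names outside the rule were chosen after their values were seen.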

How the data were processed

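Per the labels, single cells were sorted into 384-well plates and sequenced by Smart-Seq2, and the authors deposited raw read counts per gene and well. TopHat2 2.1.1, SAMtools 0.1.18, featureCounts (Subread), R 3.5.1 and Seurat 3.1.1 are named in the submitters' processing notes, with build GRCm38. The annotation version is not given in the sources used here. Each table also holds other columns, the gene identifiers and lengths, as deposited. Wells were kept from 200 genes and 50000 reads upwards where the mitochondrial share did not exceed 10%. Members and gene lists were chosen with earlier results of these data known. Spike-in counts, repeat copies of the length table and the transgene were not used.

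Counts were summed per mouse over cells (at least 5 per sum) and tested by edgeR 4.0.16 under R 4.3.3 (TMM after filterByExpr, quasi-likelihood F test, Benjamini-Hochberg, called under 0.05), with DESeq2 1.42.0 as an alternative. The code was tested on simulated data. CPM of summed reads are TMM-scaled. Each standard error (SE) of an edgeR fold change was derived from its F statistic. It is the absolute log2 fold change divided by the square root of F. Cell shares used cells thinned to 50000 reads with a seed of 1, and per-cell CPM used the reads as deposited (Python 3.11.15). Mutant mice 3 and 5 had 2 plates each, which were added. Where a group held 0 reads, a floor of 3 reads over the group was used. Named genes were all 38 members and, of each other list, up to 4 called genes, those of mean log2 CPM of at least 3 that changed most in LECs, of which 1 is not reported here. Replicate numbers are shared by mutant and control mice, but deviations of same-numbered mice correlated at -0.047 and 0.027 in LECs and 0.029 and 0.107 in BECs, so they were not treated as pairs. P-values measure the spread between the sampled mice, and control n was 2. Settings changed one at a time were the scaling, the filter, each mouse left out, the plate, depth and marker limits and cell numbers. Taking mutant 5 and the controls alone, the 1000 CPM limit and the module by subtype at Ptx3 of 300 CPM were added after seeing the data.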

Additional observations from a re-analysis of the deposited data

Results flagged for a closer look

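In 88 groups of 5 mutant mice, 1 mouse lay apart from the other 4 beyond Dixon's 95% limit in 6, and chance alone gives about 1 in 20 groups (5%). In LECs, Ube2c was lowest in mutant 3 at 26.8 CPM, where the other mutants held 44.4–45.7, and Espl1 was highest in mutant 5 at 66.3 CPM above 23.3–33.6. In BECs, mutant 2 was highest for Aurkb at 40.9 CPM (others 15.2–19.3) and for Kif4 at 22.9 CPM (others 9.19–11.6), and mutant 1 for Dlgap5 at 24.5 CPM (others 6.13–10.8). The module value of Mmrn2-over-Lyve1 LECs was 956 CPM in mutant 1 and 206–320 in the others, from 23 cells of which 1 was member-rich. Apart from these, the genotype effect on Plk1 differed between LECs and BECs by -5.29 on the log2 scale (edgeR quasi-likelihood interaction, adjusted p = 0.0437), a call that was lost without any 1 of the 7 mice.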

How the results depend on the processing

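Control sums came from 2 mice and single genes from few control reads, which limits what could be called. In LECs all 38 members stayed positive under each of the 16 other settings, and 24–29 were called with 1 mouse left out, beside 153 to 546 of all genes. DESeq2 called 2490 genes in LECs, 2238 in BECs, 1258 for the difference, and 326, 1120 and 581 in the Ptx3-high, Mmrn2-over-Lyve1 and Cldn11-high comparisons, with 32 members in BECs, 6 for the difference, 21 in Mmrn2-over-Lyve1 and 11 in Cldn11-high LECs. The plate series as a term left 178 genes and 19 members in LECs and 54 genes and 2 members in BECs, with the genotype effect resting on mutant 5 against both controls. With a replicate block, pairing mice by a number that only names them, 3 genes and 0 members were called in LECs and 0 genes and 0 members in BECs, on fewer residual degrees of freedom. With no replicate block in the subtype fits, 89 genes were called in Ptx3-high and 41 genes and 0 members in Cldn11-high LECs. First plates alone gave 5 BEC members beside 279 of all genes, and marker sums of at least 1000 CPM gave 4 beside 434. Without the low-count filter 109 genes were called in Mmrn2-over-Lyve1 LECs, and 60 genes and 0 members in Cldn11-high LECs. With a higher minimum depth per cell 78 genes and 0 members were called in the latter. Ptx3 of at least 300 CPM gave 327 genes and 7 members in Mmrn2-over-Lyve1 and 105 genes and 2 members in Cldn11-high LECs.

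With 1 mouse left out, called genes ranged from 153 to 546 in LECs (lowest without mutant 3), 159 to 586 in BECs, 0 to 21 for the difference, 62 to 111 in Ptx3-high, 22 to 147 in Mmrn2-over-Lyve1 and 17 to 33 in Cldn11-high LECs. Called members ranged from 4 to 11 in BECs (lowest without control 1), 0 to 0 for the difference, 0 to 9 in Mmrn2-over-Lyve1 (9 without mutant 1, 0 without any other) and 0 to 1 in Cldn11-high LECs, where mutant 3 alone could be left out with a call remaining. The excess of member-rich cells, 14.6 percentage points in LECs and 6.14 in BECs, was 37.4 and 21.9 at a limit of 5 members and 45.2 and 27.0 without thinning. In BECs, 3 uncalled members turned negative: Aurka (-0.13 without control 1, 6.12 without control 2), Espl1 (-0.10 without control 2, 7.42 without control 1) and Ttk with the plate series (-0.64). The causes of these changes were not tested.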
